A study of Homo sapiens with 12 samples.

Results

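The mRNAs of the mitochondrial ribosomal proteins were followed in AC16 cells and in the exosomes that these cells release. A gene was a member when its symbol starts with MRPL or MRPS followed by a digit, which gave 78 of the 15414 genes listed in the series, 49 of them MRPL and 29 MRPS. The rule used only the symbol and no measured value, and all 78 members were listed in both exosomes and cells. AC16 is an immortal human line obtained from a fusion of adult ventricular heart muscle cells with fibroblasts, and exosomes are small vesicles that cells secrete. The 12 libraries of total RNA fell into 4 groups of 3, exosomes labelled Ang, exosomes labelled Con, cells labelled Ang and cells labelled Con. The labels give neither the meaning of Ang and Con nor a dose or time, the series' title speaks of hypertrophic cardiomyocytes, and all groups came from the same line. Whether the 3 libraries of a group are separate cultures is not stated, and p-values therefore reflect library-to-library spread alone, possibly technical.

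Mitochondria hold their own ribosome, which makes only the few proteins that the mitochondrial genome encodes, core parts of the respiratory chain. Its RNA comes from the mitochondrial genome, but every one of its proteins is encoded in the nucleus, made on cytosolic ribosomes and imported, so that a member's mRNA is an ordinary cytosolic message. Part of the members descend from bacterial ribosomal proteins and part are found in mitochondrial ribosomes only. Heart muscle is rich in mitochondria, and inherited defects of several members cause heart muscle disease.

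By these classes, 30 large-subunit and 16 small-subunit members had a bacterial counterpart, and 20 large-subunit and 9 small-subunit members were mitochondria-only. The symbols do not always give the subunit: MRPS30 and MRPS18A sit in the large subunit. MRPS18A and MRPS18B are paralogues of the bacterial protein S18, whose own position is held by MRPS18C. MRPS36 has since been assigned to the 2-oxoglutarate dehydrogenase complex. The members lay on 21 chromosomes.

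Gene reads numbered 535442 to 587783 in the Ang exosome libraries, 717263 to 745311 in the Con exosome libraries and 9202471 to 11212674 in the cell libraries. The median member had 19 to 23 reads in Ang exosomes, 24 to 25.5 in Con exosomes, 291 to 342 in Ang cells and 297 to 344.5 in Con cells. In exosomes 8 members had 0 reads in at least 1 library, MRPL1, MRPL39, MRPL45, MRPL50, MRPS12, MRPS17, MRPS28 and MRPS36, and in cells none did. The coefficient of variation between the 3 libraries of a group had a median over members of 45.4% in Ang exosomes, 33.4% in Con exosomes, 8.36% in Ang cells and 8.24% in Con cells. Over all genes these medians were 44.5%, 38.7%, 9.66% and 9.93%. Exosome values thus rest on few reads and spread more between libraries than those in cells. Exosome and cell RNA were also extracted and made into libraries with different kits (exoRNeasy Maxi and SMARTer Stranded Total RNA for exosomes, miRNeasy Micro and VAHTS Universal V6 for cells), so compartment and kit cannot be told apart in any comparison of the 2. Of 10 cardiomyocyte markers, 2 were listed in exosomes and 7 in cells, where TNNT2 had 0 to 9 reads and GATA4 239 to 335, and MYH6, MYH7 and MYL2 were not listed. Their summed level, in counts scaled to library size (CPM), was 28.8 to 57.9 in Ang exosomes and 15.3 to 51.3 in Con exosomes. In Ang cells it was 36.4 to 41.5 and in Con cells 32.9 to 36.8. All 6 fibroblast markers were listed in both compartments, and their summed level was 5582 to 6547 CPM in Ang exosomes, 5055 to 6176 in Con exosomes, 5855 to 6970 in Ang cells and 6748 to 7241 in Con cells. Single markers differed. In exosomes COL1A1 had 1230 to 1781 reads, VIM 1504 to 2556 and COL1A2 177 to 296. PDGFRB had 63 to 90 there, COL3A1 1 to 68 and DCN 0 to 7. In cells COL1A1 had 25706 to 37354 reads, VIM 13348 to 24587 and COL1A2 7801 to 11717. PDGFRB had 1514 to 1914 there, COL3A1 3460 to 4778 and DCN 145 to 202. Summed endothelial markers stayed at or below 10.8 CPM and immune markers at or below 4.52 CPM in all libraries, and blood and serum markers reached 0 CPM in Ang exosomes and up to 38.9 in Con exosomes.

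How abundant each member was is best read per length. Reads were divided by kilobases of annotated exon. The results were then scaled so that the listed genes summed to the same total in every library (TPM), with no other scaling. The median member reached 66.1 in exosomes and 55.5 in cells, where the medians of all listed genes were 23.9 and 20.9. MRPS34, a mitochondria-only protein of the small subunit, had the highest level in both, 457 ± 73.4 in exosomes and 312 ± 26.3 in cells (SD over 6 libraries, n = 6 each). MRPL12, the stalk protein that contacts translation factors, came second with 435 ± 134 in exosomes and 233 ± 20.7 in cells. Next came a different member in each compartment. In exosomes it was MRPS26, a mitochondria-only small-subunit protein, at 316 ± 69.6 in exosomes and 157 ± 9.24 in cells, and in cells it was MRPL51, a mitochondria-only large-subunit protein, at 301 ± 36.9 in exosomes and 223 ± 3.56 in cells. MRPL51 shares 31.3% of its exon bases with NCAPD2 on the other strand, and strand use in counting is not stated.

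The lowest levels in cells were those of MRPL2, a protein near the peptidyl transferase centre (17.6 ± 8.49 in exosomes, 7.53 ± 0.818 in cells), MRPS33 (29.5 ± 9.92 in exosomes, 15.03 ± 1.53 in cells) and MRPS11 (42.8 ± 14.8 in exosomes, 15.1 ± 2.23 in cells; SD, n = 6 for each). The lowest in exosomes were those of MRPL42 (14.6 ± 4.50 in exosomes, 23.9 ± 4.07 in cells), MRPL50 (14.8 ± 16.2 in exosomes, 35.9 ± 2.84 in cells) and MRPS28 (15.4 ± 10.6 in exosomes, 22.6 ± 4.66 in cells). In the order of levels, 77 of 77 neighbouring pairs in exosomes and 68 of 77 in cells differed by no more than the larger SD of the pair. The order is thus firm only over wide gaps. The order also depended on the choice of length. With coding length, MRPL51 ranked 1 in exosomes and 2 in cells and MRPL33 3 in exosomes and 1 in cells. MRPS34 then ranked 7 in exosomes and 6 in cells, MRPL12 5 and 12, MRPS26 10 and 27, and MRPS33, low by exon length, 14 and 36, while MRPL2 stayed near the end at 77 and 78. MRPL42 ranked 78 in exosomes and 69 in cells with its 16393 bases of exon over all transcripts, but 12 and 4 with its 465 coding bases. Across the 78 members, the log2 levels in exosomes and cells had a Pearson correlation of 0.797 and a Spearman correlation of 0.775, values across genes of the same 12 libraries that are given as a description.

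**Figure D1:**
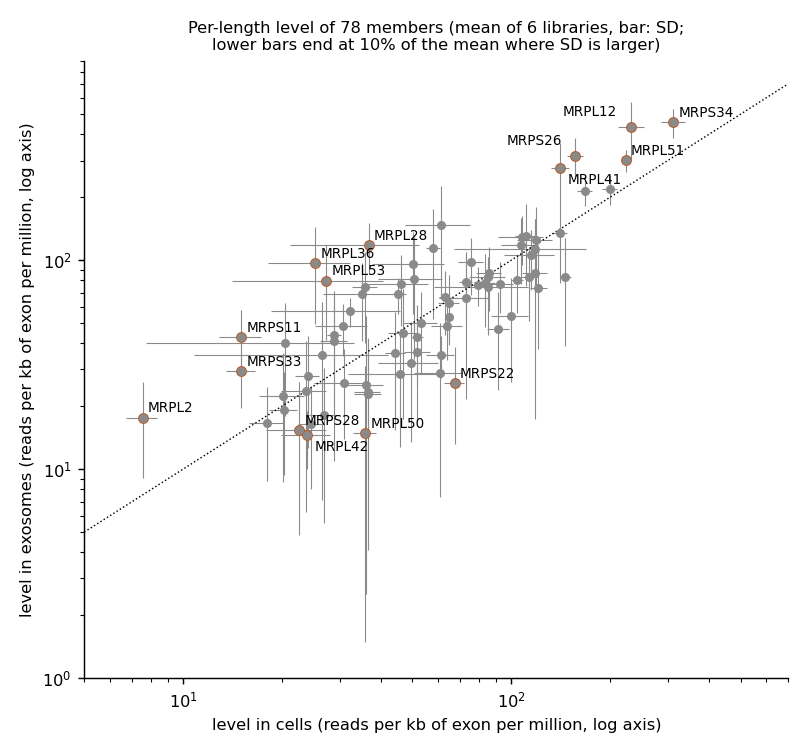
Level of each of the 78 members in exosomes (vertical) against cells (horizontal), both axes logarithmic. Levels are reads per kilobase of exon, scaled to the same total in every library (TPM). Points are means of 6 libraries, bars SD, orange points carry names, and the dotted line marks equal levels. MRPS34 and MRPL12 stand at the top in both compartments, while MRPL36, MRPL28, MRPL53 and MRPS11 lie well above the line and MRPS22 and MRPL50 below it.

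The promoters of MRPS34, MRPL51 and MRPS26, of the members highest per length, are shown. They carried the core of the motif bound by ETS transcription factors within the 250 bases before the start of transcription used for these windows. MRPL12 did not, and MRPL17 is shown as the only member with the core motif of NRF1, a factor of mitochondrial biogenesis. The sequences are the 250 bases before the start of transcription from RefSeq on GRCh38.p14, written 5′ to 3′ on the gene's strand, with matches to CCGGAAG on either strand in capitals (in MRPL17, the capitals are the NRF1 motif as it was searched, a palindrome). The windows are chr16:1773135-1773384 on the minus strand for MRPS34, chr12:6493263-6493512 on the minus strand for MRPL51, chr20:3045802-3046051 on the plus strand for MRPS26 and chr11:6683341-6683590 on the minus strand for MRPL17. These starts differ from those of GENCODE 29. There the MRPL51 window lies inside the gene (6491886 to 6493841), and the match of MRPS26 lies after the gene's start at 3045945.
MRPS34: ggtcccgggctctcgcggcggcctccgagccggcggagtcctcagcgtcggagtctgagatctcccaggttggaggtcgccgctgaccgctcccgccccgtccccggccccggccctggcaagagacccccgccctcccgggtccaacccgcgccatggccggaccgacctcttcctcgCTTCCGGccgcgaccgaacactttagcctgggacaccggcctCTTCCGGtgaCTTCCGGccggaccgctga
MRPL51: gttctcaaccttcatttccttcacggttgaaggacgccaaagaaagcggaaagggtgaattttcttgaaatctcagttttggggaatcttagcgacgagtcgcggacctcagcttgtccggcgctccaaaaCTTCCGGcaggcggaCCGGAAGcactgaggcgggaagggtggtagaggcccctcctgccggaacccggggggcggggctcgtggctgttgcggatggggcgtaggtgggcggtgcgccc
MRPS26: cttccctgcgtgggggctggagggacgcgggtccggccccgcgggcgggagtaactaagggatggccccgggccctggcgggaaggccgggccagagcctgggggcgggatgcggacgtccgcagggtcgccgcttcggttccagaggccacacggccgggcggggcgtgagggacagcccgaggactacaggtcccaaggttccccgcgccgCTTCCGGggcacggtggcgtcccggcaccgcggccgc
MRPL17: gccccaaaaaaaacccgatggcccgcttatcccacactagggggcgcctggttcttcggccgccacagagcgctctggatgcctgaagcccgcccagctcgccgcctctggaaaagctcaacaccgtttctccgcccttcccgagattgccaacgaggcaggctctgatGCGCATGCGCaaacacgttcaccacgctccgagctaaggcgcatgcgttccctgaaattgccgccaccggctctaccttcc
None of the capitalised matches overlapped another. In windows of 300 bases (250 before and 50 after the start), available for 69 of the 78 members, CCGGAAG was found on either strand in 29 (42.0%), against 19.99% of the 9719 tested genes with a window and 10.7% of all 27305 windows. The NRF1 motif was found in 1 member (1.45%), 2.37% of tested genes and 1.36% of all windows. The letters TATAAA, known as the core of a promoter element near many starts, were found in 2 members (2.90%), 5.50% of tested genes and 11.95% of all windows. Matches of letters are a description and do not show binding.

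Members also often lay head to head with another gene. A start of an oppositely transcribed gene within 1000 bases was counted for 17 of 78 members (21.8%) and for 10.02% of 11792 tested genes. MRPS12 and MRPL51 are not among the 17. They share 16.3% and 31.3% of their exon bases with the oppositely transcribed SARS2 and NCAPD2. Pairs with overlapping exons may thus be missing from both shares. MRPL46 and MRPS11 were each other's partner, with starts 34 bases apart on chromosome 15. MRPL36 stood 34 bases from NDUFS6 and MRPL47 36 bases from NDUFB5, both of which encode complex I subunits.

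Exosomes were compared with cells over all 12 libraries. After trimmed mean scaling, 27 of 78 members (34.6%) were higher in exosomes at an adjusted p below 0.05, 3 (3.85%) were lower and 48 did not pass (edgeR's quasi-likelihood F test on counts, Benjamini-Hochberg over all genes). Of all 11811 genes tested, 17.6% were higher and 19.5% lower. The share called in either direction was close, at 38.5% of members and 37.1% of all genes, and the split between directions was not tested against that of all genes. The median member differed by 0.34 on the log2 scale (1.27-fold), against -0.15 for all genes tested, and 57 of 78 members (73.1%) had a positive estimate, against 44.0% of all genes. All members together made up 0.328 to 0.372% of gene reads in Ang exosomes and 0.333 to 0.363% in Con exosomes, against 0.288 to 0.294% in Ang cells and 0.267 to 0.290% in Con cells, so that every exosome library was above every cell library. In bulk libraries, a larger share of vesicles carrying a message and more copies in each cannot be told apart.

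The size of the shift depends on how the libraries are scaled. The trimmed mean scaling used here put 2082 genes higher and 2298 lower. With raw library totals the split was 1546 higher and 3318 lower, the median of all genes was -0.36, the median member 0.13, and 21 members passed as higher (26.9%, against 13.1% of all genes) and 5 as lower (6.41%, against 28.1%), in all 33.3% of members and 41.2% of all genes. The calls of MRPL9, MRPL34, MRPL55, MRPS18B, MRPS23 and MRPS31 were lost under that scaling. The distance between the median member and the median of all genes was 0.49 under both. With the 3 Ang and 3 Con libraries of each compartment taken alone, 12 members were higher (15.4%, against 9.58% of all genes) and 2 lower (2.56%, against 8.75%) in Ang. In Con, 19 members were higher (24.4%, against 11.3%) and 0 lower (against 9.21%). All 27 members called higher had positive estimates in the Ang libraries alone and in the Con libraries alone. These 27 were called from the same 12 libraries, so positive signs in both subsets were likely beforehand and are no independent check. The signs were counted for members only, so no share of all called genes stands beside them.

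The clearest differences were in members whose 6 exosome libraries all lay above all 6 cell libraries. There were 16 such members, all of them also called higher, against 10.1% of all genes tested that were separated in this direction. MRPL36, the large-subunit counterpart of bacterial L36 (ENSG00000171421, chr5:1798386-1801366, minus strand, GENCODE 29 on GRCh38), had 11.6, 20.2 and 52.1 CPM in Ang exosomes and 30.2, 49.9 and 49.6 CPM in Con exosomes, against 4.28, 7.80 and 8.83 CPM in Ang cells and 8.83, 4.89 and 7.66 CPM in Con cells. Its estimate was the highest of all members at 4.90-fold (log2 2.29 ± 0.370 SE, adjusted p = 0.000443 by edgeR), though 1 Ang exosome library, at 6 reads, was close to the cells.

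MRPL28, the counterpart of bacterial L28 (ENSG00000086504, chr16:366969-371289, minus strand), had 73.8, 123 and 68.1 CPM in Ang exosomes and 111, 120 and 73.6 CPM in Con exosomes, against 12.5, 31.1 and 36.3 CPM in Ang cells and 22.1, 12.4 and 20.4 CPM in Con cells. The difference was 4.29-fold (log2 2.10 ± 0.293 SE, adjusted p = 0.000150 by edgeR) and the groups did not overlap. MRPS11, the small-subunit protein homologous to bacterial S11 (ENSG00000181991, chr15:88467453-88480773, plus strand), had 62.1, 86.3 and 34.04 CPM in Ang exosomes and 40.3, 85.1 and 73.6 CPM in Con exosomes, against 18.0, 16.0 and 19.4 CPM in Ang cells and 17.8, 18.5 and 12.2 CPM in Con cells. This was 3.75-fold (log2 1.91 ± 0.262 SE, adjusted p = 0.000136). Its head-to-head partner MRPL46 did not pass, with 28.3 ± 13.3 CPM in exosomes and 23.3 ± 2.998 CPM in cells (SD over 6 libraries, n = 6 each, log2 0.28, adjusted p = 0.518). The difference between the pair was not tested.

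MRPS26 (ENSG00000125901, chr20:3045945-3048254, plus strand) gave the smallest p of all members. It had 81.5, 103 and 120 CPM in Ang exosomes and 63.3, 110 and 85.6 CPM in Con exosomes, against 38.9, 37.0 and 33.6 CPM in Ang cells and 34.3, 35.1 and 33.6 CPM in Con cells (2.64-fold, log2 1.40 ± 0.173 SE, adjusted p = 5.79e-05 by edgeR). The lowest exosome library was well above the highest cell library. MRPL12 averaged 118 ± 36.4 CPM in exosomes and 47.9 ± 4.08 CPM in cells (2.45-fold, adjusted p = 0.000377 by edgeR), and 68.2% of its exon bases are shared with AC139530.2 on the same strand, so its reads cannot be fully assigned. MRPL41, a mitochondria-only protein of the large subunit, averaged 92.4 ± 29.3 CPM in exosomes and 35.7 ± 2.19 CPM in cells (2.59-fold, adjusted p = 0.000322). MRPL54 averaged 19.7 ± 9.01 CPM in exosomes and 7.21 ± 0.629 CPM in cells (2.69-fold, adjusted p = 0.00522), and MRPS33, a mitochondria-only small-subunit protein, 41.0 ± 13.96 CPM in exosomes and 15.9 ± 1.69 CPM in cells (2.59-fold, adjusted p = 0.00120; SD, n = 6 each).

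**Figure D2:**
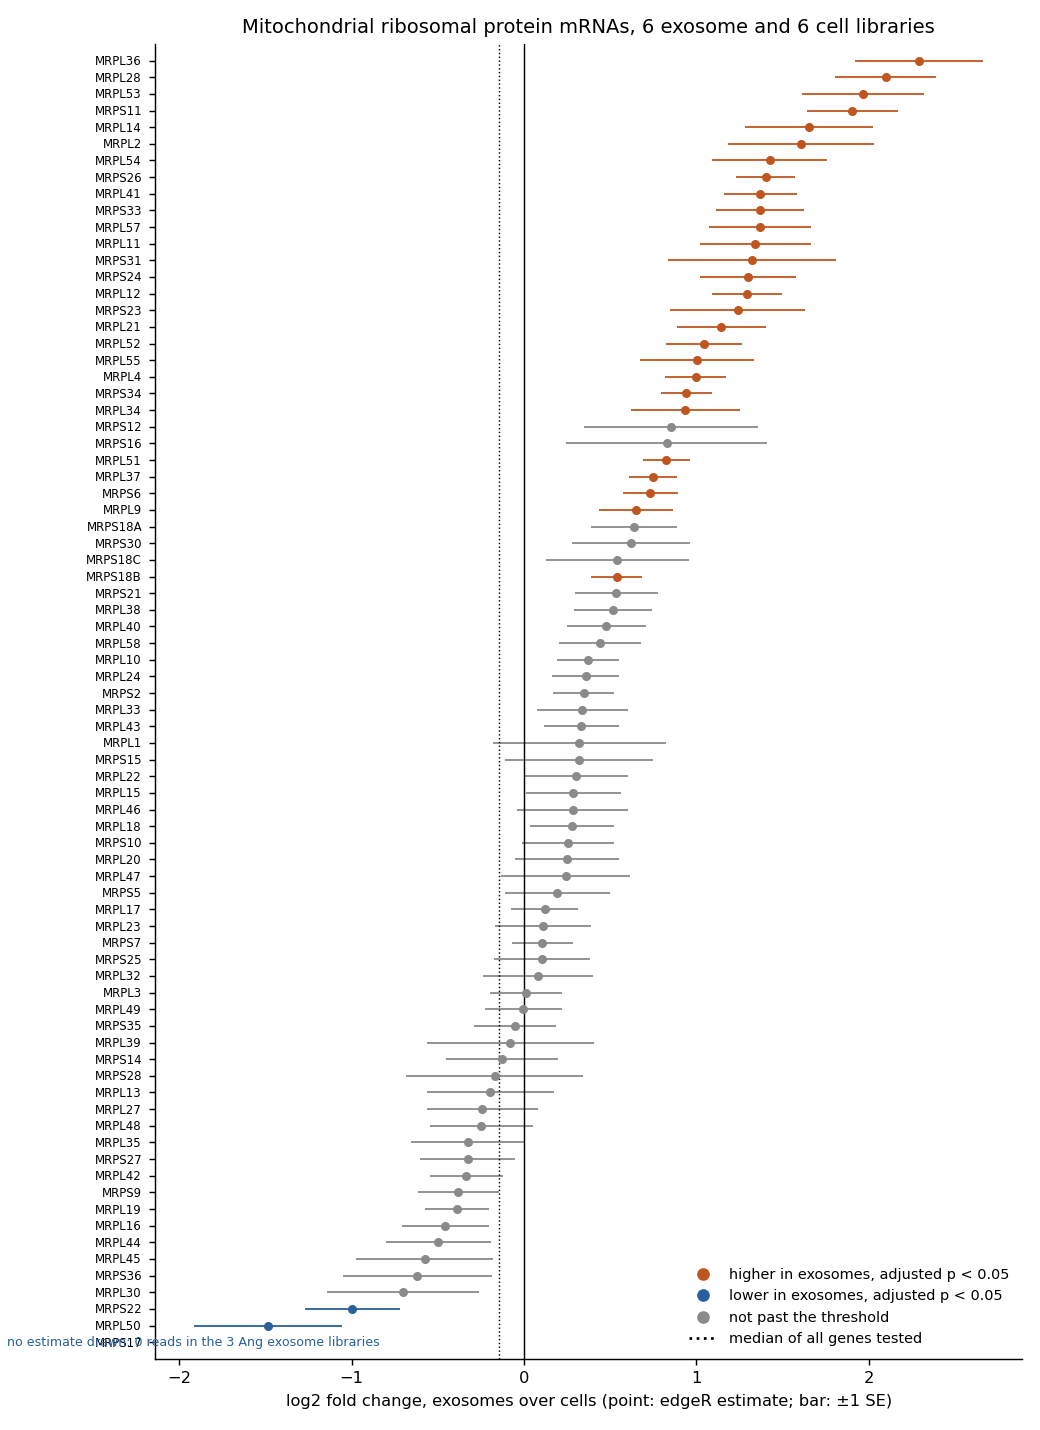
Log2 fold change of exosomes over cells for each member, from highest to lowest, with bars of 1 SE; orange marks members higher and blue members lower at an adjusted p below 0.05, grey members that did not pass, and the dotted line the median of all genes tested. The members called higher lie in the upper part of the order with MRPL36 at the top, and most members lie to the right of the dotted line; MRPS17, with 0 reads in Ang exosomes, has no estimate drawn.

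Only MRPS22, MRPL50 and MRPS17 passed as lower in exosomes, and they did so in different ways. MRPS22, a mitochondria-only small-subunit protein (ENSG00000175110, chr3:139005806-139357223, plus strand), had 31.1, 49.6 and 16.0 CPM in Ang exosomes and 41.7, 19.1 and 61.6 CPM in Con exosomes, against 66.7, 66.0 and 79.0 CPM in Ang cells and 76.7, 74.1 and 72.5 CPM in Con cells. All exosome libraries lay below all cell libraries, as they did for 2 members (MRPL45 is the other, log2 -0.58, adjusted p = 0.275) and for 13.1% of all genes tested. The difference of MRPS22 was -0.996 ± 0.277 (log2, SE) with an adjusted p of 0.0139, and it had the same sign in Ang (-1.11, adjusted p = 0.0868) and in Con libraries (-0.86, adjusted p = 0.154), neither of which passed alone.

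MRPL50, a mitochondria-only large-subunit protein, had 5.82, 0 and 4.004 CPM in Ang exosomes and 21.6, 8.81 and 37.5 CPM in Con exosomes, against 23.5, 22.7 and 22.95 CPM in Ang cells and 25.01, 22.3 and 27.1 CPM in Con cells. Its difference (log2 -1.48 ± 0.430 SE, adjusted p = 0.0169 by edgeR) lay in the Ang exosomes, with -2.82 in the Ang libraries alone and -0.13 in the Con libraries alone, where the groups overlapped, but the test of the difference between these values did not pass (adjusted p = 0.501). MRPS17 passed (adjusted p = 0.00232 by edgeR) with 0 reads in all 3 Ang exosome libraries, and in the Con libraries alone its estimate pointed the other way (log2 0.80, adjusted p = 0.0899 by edgeR).

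The other members singled out for their place in the ribosome mostly did not pass. The trio related to bacterial S18 lay close together, with MRPS18A at 0.64 ± 0.251 (log2, SE, adjusted p = 0.0639 by edgeR), MRPS18B at 0.54 ± 0.148 (adjusted p = 0.0129) and MRPS18C at 0.54 ± 0.417 (adjusted p = 0.330). On the other strand MRPS18A shares 47.0% of its exon bases with RSPH9 and MRPS18C 40.2% with ABRAXAS1. Strand use in counting is not stated, so their reads may not be fully their own. MRPS18B passed, though not with raw library totals (log2 0.32, adjusted p = 0.0962 by edgeR) nor in the Ang (adjusted p = 0.142) or Con libraries (adjusted p = 0.0788) alone, with 110 ± 17.9 CPM in exosomes and 75.5 ± 4.43 CPM in cells (SD over 6 libraries, n = 6 each), while MRPS18C, at 28.7 ± 17.5 CPM in exosomes and 19.7 ± 3.14 CPM in cells, did not pass at a similar estimate with a larger error. MRPL58, which as a peptidyl-tRNA hydrolase rescues stalled ribosomes, was at 0.44 (adjusted p = 0.168). MRPS35, a mitochondria-only small-subunit protein, was at -0.05 ± 0.239, with 43.5 ± 16.7 CPM in exosomes and 45.0 ± 2.64 CPM in cells.

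MRPS30 (log2 0.62), MRPL44 (-0.50), which holds an RNase III-like fold, and MRPS12 (0.86), the decoding-site protein homologous to bacterial S12, had adjusted p values of 0.177, 0.219 and 0.203, and each turned on 1 Ang exosome library. Without Ang exosome replicate 2, MRPL44 was at -0.97 (adjusted p = 0.00823 by edgeR) and MRPS12 at 1.15 (adjusted p = 0.0231). Without Ang exosome replicate 3, MRPS30 was at 0.84 (adjusted p = 0.0225), and without Ang exosome replicate 1, MRPS18A was at 0.80 (adjusted p = 0.00851). MRPS12 had 7, 0 and 21 reads in Ang exosomes and 8, 24 and 24 in Con exosomes. Whether a call held in every fit without 1 library was counted for members only, so no share of all genes stands beside it. Of the 30 called members, 25 were called without any 1 of the 12 libraries, 22 of them higher and 3 lower. The other calls, of MRPL34, MRPL55, MRPS31, MRPL9 and MRPS23, were lost without 10, 8, 8, 6 and 1 of the libraries, which for MRPS23 was Con exosome replicate 2. MRPL10, MRPL16, MRPL19, MRPL30, MRPL38, MRPL40, MRPS16 and MRPS21 passed in at least 1 of these fits without passing in the fit to all libraries.

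**Figure D3:**
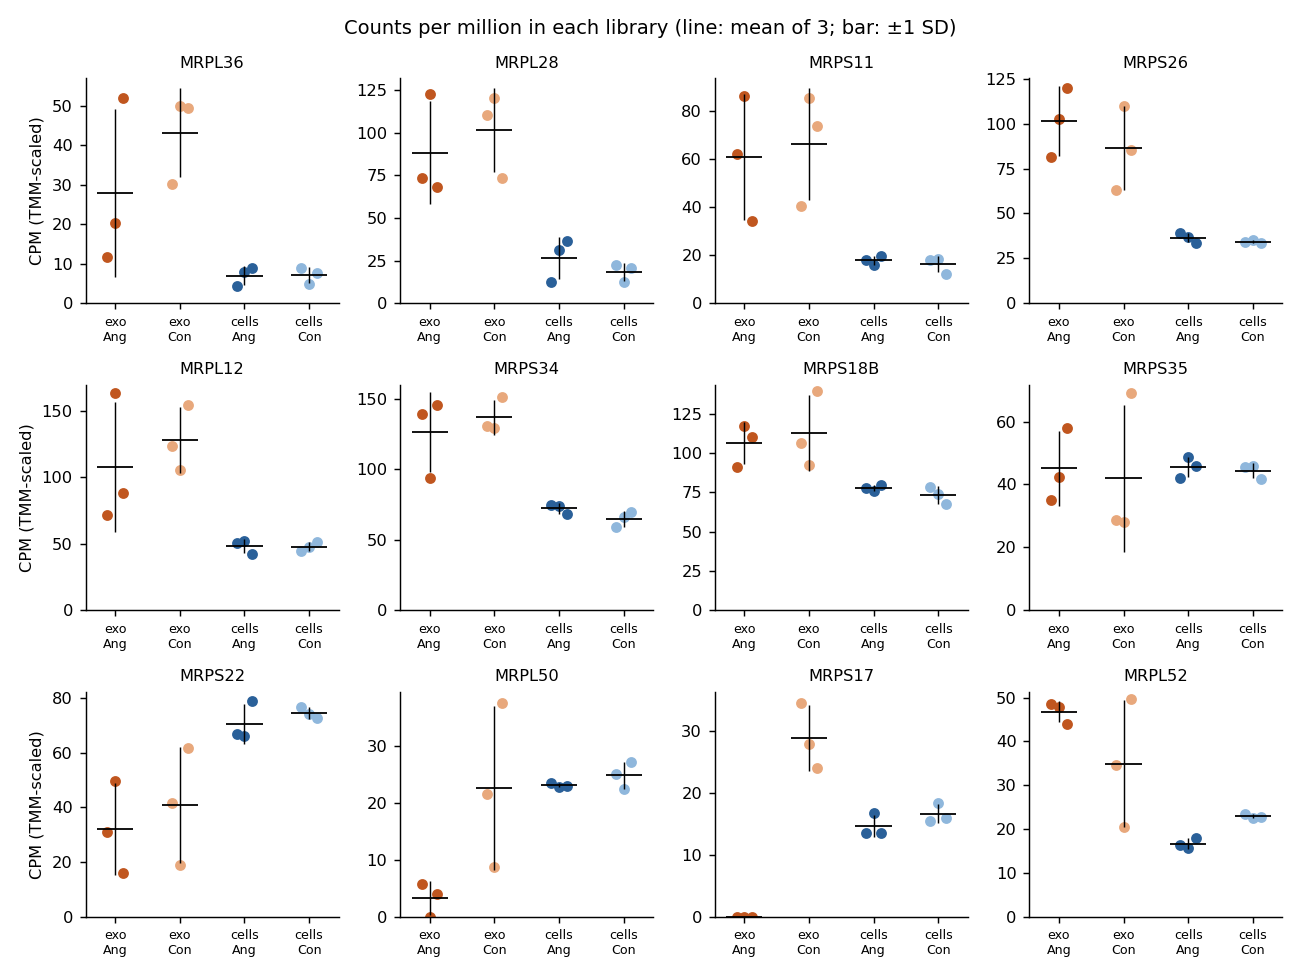
CPM after trimmed mean scaling for 12 members in each library, by group (Ang exosomes, Con exosomes, Ang cells, Con cells), with the mean of 3 as a line and 1 SD as a bar; each panel has its own axis from 0. Exosome points lie above all cell points for MRPL36, MRPL28, MRPS11, MRPS26, MRPL12, MRPS34 and MRPS18B, overlap them for MRPS35, and MRPS17 is at 0 in the 3 Ang exosome libraries.

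By subunit, 18 of 51 large-subunit members were higher (35.3%) and 1 lower (1.96%), with a median log2 of 0.34. Of 26 small-subunit members, 9 were higher (34.6%) and 2 lower (7.69%), with a median of 0.44. By origin, 14 of 46 members with a bacterial counterpart were higher (30.4%) and 1 lower (2.17%), with a median of 0.32. Of 29 mitochondria-only members, 12 were higher (41.4%) and 2 lower (6.9%), with a median of 0.48. Of all genes tested, 17.6% were higher and 19.5% lower. In either direction the 4 classes had 37.3, 42.3, 32.6 and 48.3% called, in that order, against 37.1% of all genes. These classes were not tested against each other. Of the ribosomal proteins that carry other symbols, AURKAIP1 (log2 1.72) and GADD45GIP1 (1.22) were higher in exosomes, PTCD3, a pentatricopeptide protein of the small subunit, was lower (-1.09), and DAP3, at -0.25, and CHCHD1, at 0.11, did not pass.

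The other genes of the pathway did not share one direction. Among 79 cytosolic ribosomal proteins, 73 were higher in exosomes and 0 lower, with a median log2 of 0.82 (RPLP2 was at 2.10). Among 76 nuclear-encoded respiratory chain subunits 35 were higher and 5 lower, with a median of 0.50, and the widest differences were those of the complex I subunit NDUFA9 (-2.02) and the complex IV subunits COX5A (1.76) and COX4I1 (1.66). Of 27 factors that assemble the mitochondrial ribosome or modify its RNA, 1 was higher, C1QBP (log2 0.92), and 5 were lower (METTL15 at -1.21, NSUN4 at -1.19, GTPBP10, RCC1L and MRM2), with a median of -0.27. The 5 make 18.5% of the list, close to the 19.5% of all genes called lower, and fewer of the list were higher (3.7%, against 17.6%). Of 17 mitochondrial translation factors, 1 was higher, SLIRP, which binds mitochondrial mRNAs (0.72), and 6 were lower (35.3%), with a median of -0.11. The lower ones included OXA1L, which inserts new proteins into the inner membrane (-1.47), the initiation factor MTIF3 (-1.28) and the elongation factor GFM1 (-1.002). Of 5 genes of mitochondrial transcription, POLRMT, the RNA polymerase, was higher (0.57) and TFAM, which packages mitochondrial DNA, was lower (-0.75), while TFB2M (-0.88), TEFM (-1.50) and MTERF1 (-0.91) did not pass, and the median was -0.88. All these values come from the same edgeR fit and threshold, and no difference between lists was tested.

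The difference between exosomes and cells went with the base composition of the transcript. Across the 78 members the log2 fold change had a Pearson correlation of 0.430 and a Spearman correlation of 0.529 with the GC content of the transcript, against 0.255 and 0.294 across 11793 tested genes, as a description over genes that share the same 12 libraries. The 26 members lowest in GC (35.0 to 46.4%) had a median log2 fold change of -0.07. The middle 26 had a median of 0.49, and the 26 highest in GC (53.0 to 71.9%) a median of 0.80. All tested genes in these GC ranges had medians of -0.39, -0.20 and 0.23. Members were also short, with a median transcript of 1379 bases against 3173 for all tested genes. The 26 members with the shortest transcripts (527 to 1086 bases) had a median log2 fold change of 0.35, and the 761 tested genes of that length range 0.43. The middle 26 stood at 0.54 against 0.20 for genes of their range, and the 26 longest at 0.16 against -0.17. The part of GC content, transcript length or kit in the differences was not tested. Members with CCGGAAG in the promoter window had a median log2 fold change of 0.54 (29 members) and those without 0.31 (40 members).

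**Figure D4:**
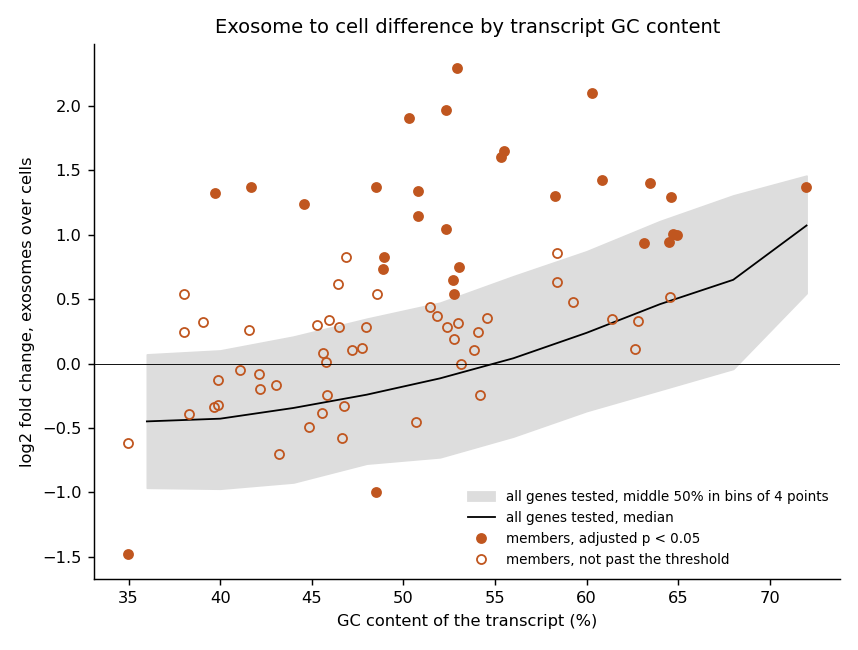
Log2 fold change of exosomes over cells against GC content of the transcript in percent; orange circles are members (filled, adjusted p below 0.05), and the black line and grey band are the median and middle 50% of all tested genes in bins of GC content. Fold changes of members rise with GC content as those of all genes do, with most circles above the black line; MRPS17, with 0 reads in Ang exosomes, is not drawn.

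Ang was compared with Con within each compartment. In exosomes, no member passed: 0 of 72 tested members were called by edgeR, against 1 of 8327 genes (0.012%). At an unadjusted p below 0.05 there was 1 member, against 3.79% of all genes, and DESeq2 called 1, in each case MRPS17. The median member was at -0.002 with 36 of 72 estimates positive, and the median SE of a member's log2 fold change was 0.51. In simulated counts this fit called 0% and 2.08% of genes changed by -1 and 1 on the log2 scale. It called 24.3% and 34% of those changed by -2 and 2. Small changes, and most changes of these sizes, were thus not detectable with these libraries. The 3 Ang libraries lay above the 3 Con libraries for 1 member, MRPS6, against 5.18% of all genes, and below them for 2, MRPS17 and MRPS9, against 5.6%.

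MRPS17 encodes the small-subunit protein homologous to bacterial S17 (ENSG00000239789, chr7:55951819-55956501, plus strand) and was the exception in exosomes. It had 0, 0 and 0 reads in Ang exosomes, against 24, 19 and 16 reads in Con exosomes. Ang cells had 133, 182 and 154 reads and Con cells 156, 192 and 192, so that the groups overlapped there (log2 -0.19, adjusted p = 0.841 by edgeR). Set at the floor of 3 reads over the 3 Ang libraries, the level was 14.98-fold lower in Ang exosomes than in Con exosomes. With the counting error of both groups (exact binomial interval, 95%) it was at least 11.8-fold lower, a limit on the pooled reads that leaves out the spread between libraries. This did not pass within the exosome libraries (adjusted p = 0.462 by edgeR), but passed with DESeq2 (adjusted p = 0.00568) and with edgeR fitted to all 12 libraries (adjusted p = 0.00847), and over all alternatives the adjusted p ranged up to 0.9996. The test of the difference between the exosome and the cell change gave an adjusted p of 0.0526 by edgeR, which ranged between 0.0301 and 0.171 when 1 library was left out, below 0.05 for 4 of 12. Of the exon bases of MRPS17, 27.0% are shared on the same strand with NIPSNAP2 and AC092647.5, and the annotation names 4 MRPS17 pseudogenes. NIPSNAP2 was read in all exosome libraries, with 33, 27 and 18 in the Ang and 26, 31 and 38 in the Con libraries.

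Zeros also occurred in single exosome libraries. Members with 0 reads in 1 library and at least 10 in another of the same group numbered 4 in Ang exosomes (MRPL1, MRPL39, MRPL45 and MRPS12) and 1 in Con exosomes (MRPS28), which is 5.13% and 1.28% of members, and over all genes such gaps made up 5.45% and 4.81%. In cells no member had one.

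The members with the next smallest p in exosomes were MRPS6, MRPS24, MRPS27 and MRPL10. MRPS6, the counterpart of bacterial S6, had 109, 125 and 170 CPM in Ang exosomes, against 96.4, 73.4 and 91.6 CPM in Con exosomes (log2 0.63 ± 0.306 SE, adjusted p = 0.999 by edgeR), and the groups did not overlap. MRPS24, the counterpart of bacterial S3, had 83.5, 147 and 82.1 CPM in Ang exosomes, against 40.3, 24.96 and 94.6 CPM in Con exosomes (log2 0.97 ± 0.507 SE), where 1 Con library lay among the Ang libraries. MRPS27, an RNA-binding small-subunit protein, was at 0.94 ± 0.507 and MRPL10, the protein that anchors the stalk, at -0.65 ± 0.378, and neither passed. Differences of this size did not stand apart from the spread between libraries.

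There were 6 members too low in exosomes to pass the filter on counts, which have no exosome Ang against Con test. MRPL1 had 2, 0 and 11 reads in Ang exosomes, against 14, 11 and 7 in Con exosomes. MRPL2 had 9, 1 and 8 reads in Ang exosomes, against 7, 10 and 7 in Con exosomes. The groups overlapped in both, as they did in MRPL34 (17, 18 and 5 reads in Ang exosomes, against 11, 11 and 6 in Con exosomes) and in MRPS28 (2, 4 and 4 against 10, 0 and 7). MRPL50 had 3, 0 and 2 reads in Ang exosomes, against 15, 6 and 25 in Con exosomes, and MRPS36 had 11, 6 and 7 against 2, 5 and 0, both without overlap and in opposite directions. How many of all genes below the filter were separated in this way was not counted, and reads this low are given as a description.

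In cells the members were nearly level between Ang and Con. By edgeR 0 of 78 members and 0 of 13331 genes (0.0%) passed. At an unadjusted p below 0.05 there were 6 members (7.69%), against 6.12% of all genes, and DESeq2 called 1, MRPL52. The median member was at 0.04 with 51 of 78 estimates positive (65.4%, against 49.8% of all genes), and 72 of 78 lay within 0.5 of 0 on the log2 scale with a median SE of 0.12. Ang lay above Con without overlap for 10 members, against 7.01% of all genes, and below for 2, against 6.89%. Cytosolic ribosomal proteins had a median of 0.05 and respiratory chain subunits 0.04, with 0 called in each list in either compartment.

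MRPL52, a mitochondria-only large-subunit protein (ENSG00000172590, chr14:22829879-22835037, plus strand), gave the smallest p in cells. It had 16.3, 15.8 and 18.0 CPM in Ang cells, against 23.4, 22.5 and 22.7 CPM in Con cells, so that the groups were apart. The difference was -0.46 ± 0.0881 (log2, SE) with an adjusted p of 0.781 by edgeR, or 0.0491 by DESeq2. In exosomes it was at 48.5, 47.8 and 44.0 CPM in Ang and 34.5, 20.6 and 49.6 CPM in Con, where the groups overlapped. MRPL47, the large-subunit counterpart of bacterial L29, had 23.1, 22.3 and 23.8 CPM in Ang cells, against 16.5, 15.9 and 18.2 CPM in Con cells (log2 0.45 ± 0.0891 SE, adjusted p = 0.781 by edgeR). MRPL17 (0.23), MRPL13 (0.26) and MRPL53 (0.97) came next, none of them past the threshold. MRPL53 had 6.93, 8.26 and 14.2 CPM in Ang cells and 3.97, 5.37 and 5.58 CPM in Con cells, and 45.2% of its exon bases are shared with CCDC142 on the same strand.

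The Ang against Con change was also compared between exosomes and cells. By edgeR 0 of 78 members passed, against 3 of 11811 genes (0.0254%). In simulated counts this test called 8% and 4% of genes changed by -2 and 2 on the log2 scale, so most changes of that size would be missed. At an unadjusted p below 0.05 there were 5 members, against 8.22% of all genes, and DESeq2 called 3, MRPL50, MRPS17 and MRPS36. Beside MRPS17, the smallest p values were those of MRPL50 (log2 -2.70 ± 0.867 SE, adjusted p = 0.501 by edgeR) and MRPL53 (-1.75 ± 0.689, adjusted p = 0.558).

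**Figure D5:**
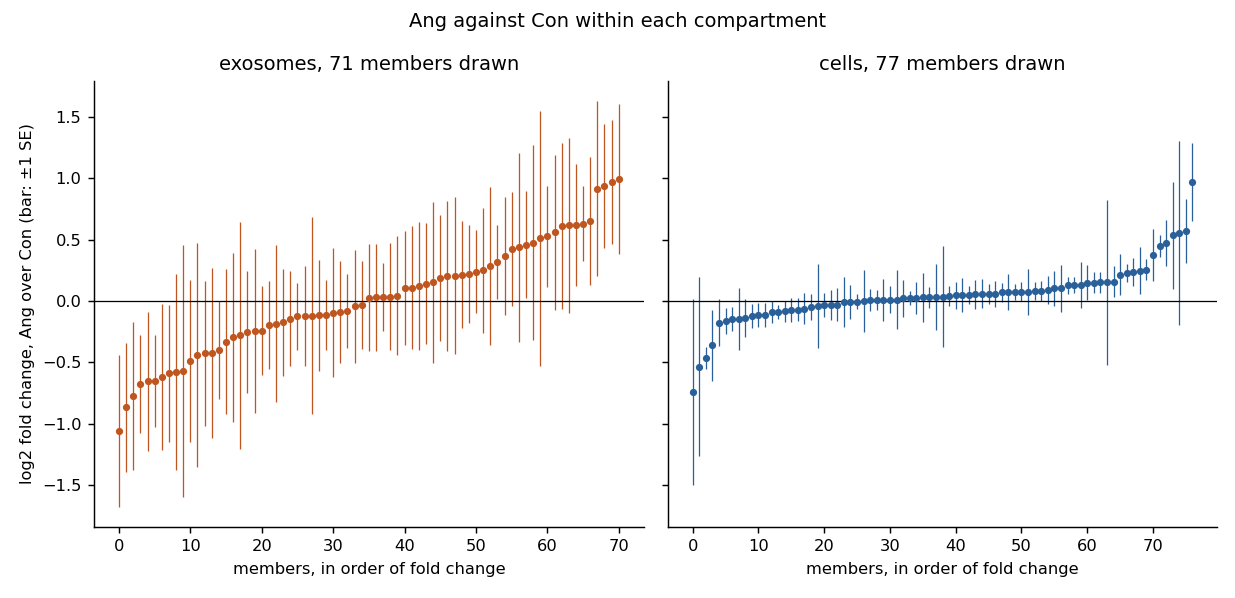
Log2 fold change of Ang over Con for members in exosomes (left) and in cells (right), each in its own order of fold change, with bars of 1 SE. Estimates in exosomes spread evenly around 0 with wide bars, those in cells lie close to 0 apart from a few at either end, with MRPL53 (0.97) the highest; MRPS17, with 0 reads in Ang exosomes, is not drawn.

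Circular RNAs, rings of exon sequence counted by their junction reads, were another readout of the same genes. Members hosted 2 of the 939 circular RNAs listed in exosomes, with 3 junction reads in MRPL47 and 2 in MRPL22. In cells they hosted 6 of 5179, of which 3 lay in MRPL30 (26 reads), 2 in MRPS5 (6 reads) and 1 in MRPS35 (2 reads), in all 34 of 43450 junction reads. None was listed in both compartments and none had reads in 4 or more of the 6 libraries of a compartment.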

How the data were processed

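The authors deposited read counts, per the file headers, by gene and by circular RNA junction. The submitters' processing notes name GRCh38, HISAT2 and StringTie without versions; counting, strand use and annotation are not stated there. Every listed gene reached 7 reads in its compartment. Gene positions and lengths came from GENCODE 29. Counts were tested with edgeR 4.0.16 in R 4.3.3 (quasi-likelihood F test, robust, two-sided, TMM scaling, filterByExpr with minimum count 10 and minimum total 15), with Benjamini-Hochberg adjustment over all tested genes and a threshold of 0.05. Exosomes and cells were compared over all 12 libraries, Ang and Con within the 6 libraries of a compartment. CPM carry TMM scaling. Alternatives were other scalings, DESeq2 1.42.0, no filter, a replicate block, subsets of libraries and leaving out each library. Named were up to 8 separated members in each direction by fold, those with the smallest p, the highest and lowest per length, members not past the filter, 10 chosen for their roles and up to 3 of each other list by fold. Other named genes were named after their values were seen. The members and lists were chosen with earlier results of these data known. The test script was checked on simulated counts. Mitochondrially encoded genes were not analysed here.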

Additional observations from a re-analysis of the deposited data

How the results depend on the processing

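Exosomes against cells, the number of members called was 19 with Con libraries only, 14 with Ang libraries only and between 26 and 31 with 1 library left out, against 30 with all. DESeq2 called 40 members (51.3%) and 5713 genes (48.4%). Con libraries gave 2395 genes, Ang libraries 2126 and the fits without 1 library 3539 to 4535 (34.5 to 38.1%, members 33.3 to 39.7%), against 4380 with all. The median member was at 0.13 with raw library totals, 0.46 with Con libraries only, 0.43 with Ang libraries only and 0.33 to 0.45 with 1 library left out. MRPS35, near 0, took the other sign when 1 of 4 libraries was left out (0.0228, 0.0498, 0.0527 and 0.0025 on the log2 scale, range -0.34 to 0.0527 over all). For Ang against Con in exosomes 1 member was called by DESeq2 and 1 in the fit to all 12 libraries, with 16 and 22 genes against 1; without the filter 3 genes were called, with 1 library left out 1 to 4. In cells DESeq2 called 1 member and 60 genes, against 0 genes by edgeR, and the median member lay between 0.0209 and 0.0519 with 1 library left out. For the difference of these changes DESeq2 called 3 members and 368 genes, against 3 genes by edgeR, leaving out 1 library gave 0 to 1 members and 1 to 17 genes, and the median lay between -0.15 and 0.00936. The deviations of same-numbered libraries from their group means showed no correlation above 0.1. With groups of 3 and few exosome reads, this cannot decide whether same-numbered libraries belong together, and the fits used no pairing. With the number as a replicate block, 23 members and 3114 genes were called exosomes against cells, and 0 members in the Ang against Con comparisons. With coding in place of exon length the median level was 58.7 in exosomes and 59.8 in cells. The causes were not tested. In exosomes the median member had at most 25.5 reads, and the common biological coefficient of variation was 0.423 in exosomes and 0.227 in cells; their parts in the errors were not tested.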
